A study of Mus musculus with 4 samples.

Results

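The T cell receptor constant chains are the part of the receptor that every T cell of one lineage shares, and 8 mouse gene rows were followed here, taken by symbol from the 31053 mouse features of the count matrices: Trac, Trbc1, Trbc2, Trdc, Tcrg-C1, Tcrg-C2, Tcrg-C4 and the gamma variable segment Trgv2. The rule took them by symbol and used no measured value, though the list was chosen with earlier results of these data known. Their UMIs (unique molecular identifiers, the molecule tags that remove duplicate reads) were read in lymphocytes of HER2+ H605 mammary tumours, which grew from cultured tumour cells placed in the mammary pads of mice (FVB/NJ strain) aged 6 to 8 weeks and collected on day 14. The hosts were wild type (WT, 2 tumours) or IL1α-/- (2 tumours). The deletion is in the host only, the injected tumour cells being the same for both groups, and the labels name no other treatment. The tumours came as 2 WT and IL1α-/- pairs, each taken on its own day. Whole digested tumours, enriched for live cells and with no sort for lymphocytes, went into 3' single-cell libraries. Il1a itself had 64 and 108 UMIs in the WT tumours and 1 and 0 in the IL1α-/- tumours.

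An alpha-beta T cell joins a Trac chain to a Trbc1 or Trbc2 chain, and a gamma-delta T cell joins Trdc to one of the gamma constant chains. DNA recombination joins a variable (V) segment to joining segments, and RNA splicing then adds the constant exons. Many clones can share a V segment, while the constant gene marks the lineage. The chains reach the surface only with the CD3 proteins, and natural killer (NK) cells, which lack a rearranged receptor, are known to carry unrearranged transcripts of some of these loci.

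Of 14068 cells kept, 8752 were gated as T or NK cells by a 10-gene panel that holds no member. Within them the gates were 1696 CD8 cells (Cd8b1 UMI, CD3 UMIs, no Cd4), 1131 CD4 cells (Cd4 UMI, CD3 UMIs, no Cd8b1), 568 gamma-delta cells (CD3 UMIs, no coreceptor, at least 2 Trdc UMIs) and 2118 NK cells (no CD3 UMI, at least 2 UMIs over 7 NK genes). Only Trdc among the members sets a gate, so its level in the gamma-delta gate is given without a test. Cd8a, which sets no gate, was at 436 to 701 CPM (UMIs of the gene per 1e+06 UMIs) in the CD8 gate and 0 to 59.9 CPM in the CD4 gate. The libraries held 6705368 to 29001333 UMIs, both IL1α-/- libraries being the shallowest, and any pair of libraries shared 0 to 5 cell barcodes. All levels below are CPM of the gated cells summed per tumour; a 3' UMI counts a transcript once whatever its length, so CPM values can be set side by side between genes. Nothing in the labels says whether the tumours of a group came from separate cultures, so p-values measure the spread between these tumours.

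The gamma genes lie together on chromosome 13 of GRCm38 (the mm10 build): Tcrg-C1 at chr13:19214103-19217024 and Tcrg-C4 at chr13:19344558-19352756 on the plus strand, Tcrg-C2 at chr13:19304649-19307551 and Trgv2 at chr13:19336573-19337167 on the minus strand. The exons that encode the connecting peptide, which ties the immunoglobulin-like domain to the membrane, are where the 3 constant genes differ in length, and they are shown because the gamma results turn on telling these genes apart. Sequences are from GENCODE release M21 transcripts, written 5′ to 3′ on the gene's strand; capitals mark the 15 bases of Tcrg-C1 that Tcrg-C2 lacks.
Tcrg-C1 exon 2, chr13:19215864-19215908, plus strand: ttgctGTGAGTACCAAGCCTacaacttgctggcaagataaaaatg
Tcrg-C2 exon 2, chr13:19305769-19305798, minus strand: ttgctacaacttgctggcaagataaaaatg
Tcrg-C4 exon 2, chr13:19349536-19349589, plus strand: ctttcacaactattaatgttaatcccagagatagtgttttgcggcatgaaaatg
Tcrg-C4 exon 3, chr13:19350330-19350374, plus strand: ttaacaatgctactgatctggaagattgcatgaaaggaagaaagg
The coding bases of Tcrg-C1 and Tcrg-C2 were 94.6% identical and the last 300 bases of their transcripts, where 3' reads fall, 91.1% identical with a shared run of 104 bases. Reads of this pair may therefore have been split or discarded by the authors' counting, and their separate levels are uncertain. Tcrg-C4 was 70.5% identical to Tcrg-C1 in coding bases and 53.9% in the last 300 bases.

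Trbc1 (chr6:41538218-41539881) and Trbc2 (chr6:41546730-41548352) sit one after the other on the plus strand of chromosome 6. Their coding bases were 95.6% identical, with 1 differing base among the 375 of exon 1 and a shared run of 259 bases. Most differences were in the last 2 coding exons, which encode the transmembrane part and the short tail; these are shown with the differing bases in capitals (15 in exon 3 and 4 in exon 4).
Trbc1 exon 3, chr6:41539229-41539335: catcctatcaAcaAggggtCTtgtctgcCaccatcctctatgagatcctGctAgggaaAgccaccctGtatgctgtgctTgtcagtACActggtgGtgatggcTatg
Trbc2 exon 3, chr6:41547772-41547878: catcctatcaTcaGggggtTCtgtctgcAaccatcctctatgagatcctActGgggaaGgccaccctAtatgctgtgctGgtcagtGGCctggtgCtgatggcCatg
Trbc1 exon 4, chr6:41539645-41539662: gtcaaAaGaaaGaattcA
Trbc2 exon 4, chr6:41548161-41548178: gtcaaGaAaaaAaattcC
The last 300 transcript bases of the pair aligned at only 50.9% identity with a longest shared run of 11 bases, so reads from the 3' end tell Trbc1 from Trbc2. Trac (chr14:54220521-54224206) and Trdc (chr14:54142851-54148868) lie on the plus strand of chromosome 14. The reference is from another strain than the FVB/NJ hosts, and the effect of strain differences on the counts was not tested.

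Trac, the constant chain of the alpha-beta receptor's alpha subunit, separated the gates in every tumour. In the CD8 gate it was at 418 and 539 CPM in the 2 WT tumours and 472 and 514 CPM in the 2 IL1α-/- tumours. In the CD4 gate it was at 573 and 506 CPM (WT) and 566 and 630 CPM (IL1α-/-). The CD4 and CD8 ranges overlapped, and both lay far above the gamma-delta gate, which held 46.9 to 61.7 CPM. NK cells held 3.41 to 19.2 CPM of Trac, a range that overlapped the 1.34 to 16.3 CPM of phagocyte-gated cells, which should lack the gene and so measure stray RNA. A Trac UMI was seen in 0.514% to 1.42% of the phagocyte-gated cells (median depth 1736 to 4500 UMIs) and in 1.28% to 3.33% of the NK-gated cells (median depth 1148 to 4110 UMIs). Against the pooled alpha-beta gates Trac fell by 3.35 on the log2 scale in the gamma-delta gate (SE 0.18, edgeR quasi-likelihood test with the tumour as a term, adjusted p = 1.139e-09), and against NK cells it was higher by 2.86 (SE 0.26, edgeR adjusted p = 8.79e-19).

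Trdc, the delta constant chain, was at 1094, 1114, 2037 and 1141 CPM in the gamma-delta gate of WT 1, WT 2, IL1α-/- 1 and IL1α-/- 2, as its gate requires. NK cells, gated without it, carried Trdc at 178 and 158 CPM (WT) and 145 and 144 CPM (IL1α-/-), and 16.1% to 42.9% of them had a Trdc UMI. That NK level lay above the 3.29 to 57.8 CPM of the CD8 gate, the 3.50 to 17.1 CPM of the CD4 gate and the 0 to 0.803 CPM of phagocyte-gated cells, with no overlap. After each NK cell was thinned to 1000 UMIs, leaving out the shallower cells, 11.9% to 16.1% had a Trdc UMI. Near the limit of the gamma-delta gate, 132 of its cells had exactly 2 Trdc UMIs and 146 cells without coreceptors had exactly 1.

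**Figure D1:**
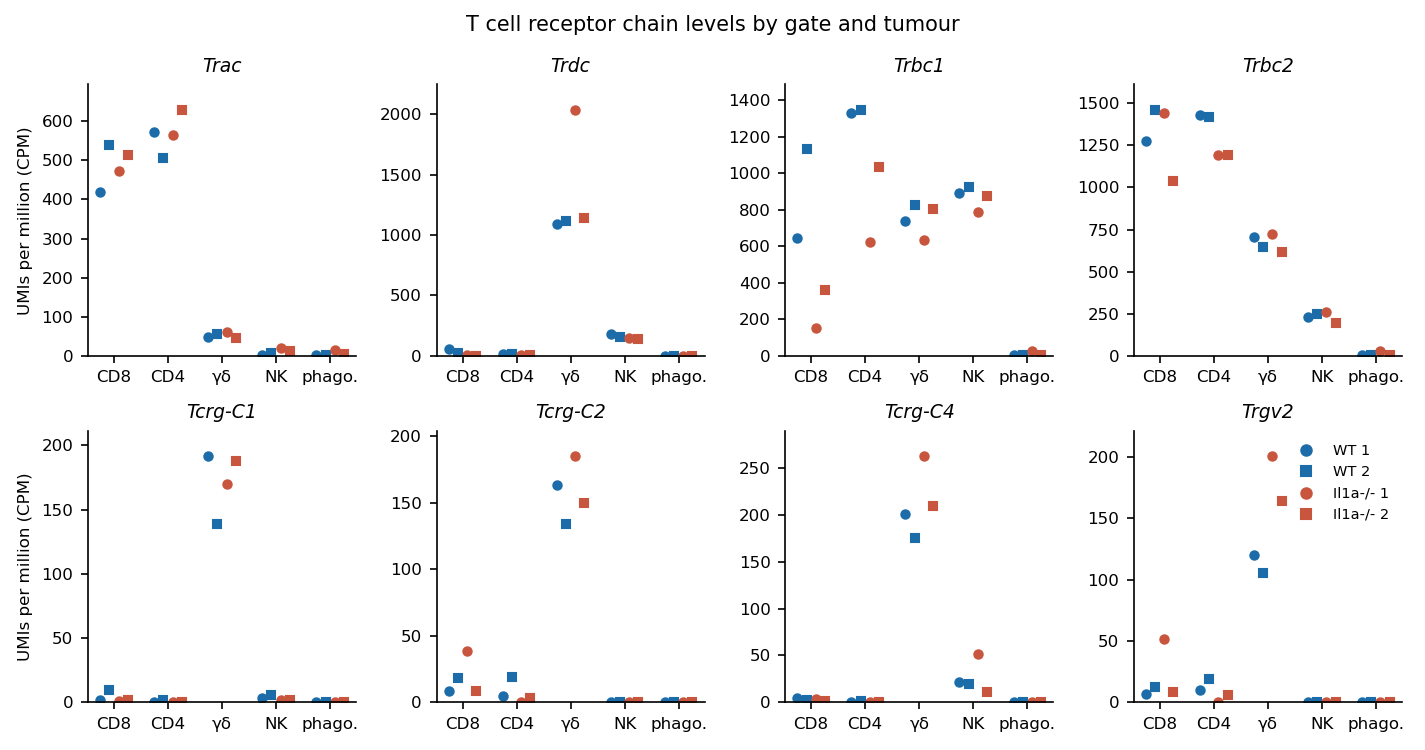
Level of each chain (CPM) in the CD8, CD4, gamma-delta (γδ) and NK gates and in phagocyte-gated cells; each point is 1 tumour, blue WT and red IL1α-/-, circles replicate 1 and squares replicate 2. Trac marks the CD8 and CD4 gates, the gamma genes the gamma-delta gate, and the Trbc1 range in NK cells (788 to 925 CPM) overlaps that in gamma-delta cells (633 to 825 CPM).

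Of the beta constant genes, Trbc2 followed the T cell gates while Trbc1 did not. Trbc2 was at 1040 to 1461 CPM in the CD8 gate and 1192 to 1430 CPM in the CD4 gate, which overlapped. It was at 617 to 725 CPM in gamma-delta cells and 193 to 261 CPM in NK cells, with no overlap between these steps. Phagocyte-gated cells held 3.75 to 29.3 CPM. Trbc2 fell by 1.01 on the log2 scale in gamma-delta against alpha-beta cells (SE 0.13, edgeR adjusted p = 4.3e-05) and was 1.61 higher in gamma-delta than in NK cells (SE 0.10, edgeR adjusted p = 2.37e-31).

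Trbc1 in NK cells was at 892, 925, 788 and 875 CPM in WT 1, WT 2, IL1α-/- 1 and IL1α-/- 2. Gamma-delta cells held 739, 825, 633 and 803 CPM in the same order. The ranges overlapped, and the difference of gamma-delta minus NK was -0.13 (log2, SE 0.09, edgeR adjusted p = 0.498). Gamma-delta minus alpha-beta was 0.14 (SE 0.25, edgeR adjusted p = 0.829). Phagocyte-gated cells held 3.70 to 26.0 CPM. Trbc1 made up 75.2% to 81.9% of all Trbc UMIs in NK cells, 46.6% to 56.5% in gamma-delta cells and 34.4% to 48.8% in the CD4 gate. Among NK cells with at least 3 Trbc UMIs, 28.0% to 45.7% had Trbc1 alone and 0.440% to 1.59% had Trbc2 alone. The V segments that would mark a rearranged beta chain were nearly missing beside it: over all 35 Trbv rows, the 2118 NK cells held 1 UMI.

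Over the 3 gate comparisons, 1 of 6 members tested was called between the CD8 and CD4 gates (all genes: 5.87% called), 6 of 7 between gamma-delta and alpha-beta cells (11.3%) and 6 of 7 between gamma-delta and NK cells (10.5%). Between CD8 and CD4 cells the 1 member called was Trbc1, lower in CD8 cells by a log2 difference of -1.10 (SE 0.22, edgeR adjusted p = 0.00955). Without IL1α-/- 1 that difference was -0.87 and no longer passed (edgeR adjusted p = 0.103). Trac differed by -0.15 (SE 0.13) and Trbc2 by 0.06 (SE 0.11), and neither passed the test.

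The gamma constant genes were highest in the gamma-delta gate; the CD8 and CD4 gates held at most 9.86 CPM of Tcrg-C1, 38.3 CPM of Tcrg-C2 and 4.45 CPM of Tcrg-C4. In gamma-delta cells Tcrg-C1 was at 191 and 139 CPM (WT) and 170 and 188 CPM (IL1α-/-). Tcrg-C2 was at 163 and 134 CPM (WT) and 185 and 150 CPM (IL1α-/-). Tcrg-C4 was at 200.4 and 175 CPM (WT) and 262 and 209 CPM (IL1α-/-). The WT and IL1α-/- values overlapped for Tcrg-C1 and Tcrg-C2. For Tcrg-C4 both IL1α-/- values lay above both WT values (log2 difference 0.24, SE 0.25, edgeR adjusted p = 0.71). The Tcrg-C4 value of IL1α-/- 1 rests on 17 UMIs. Against alpha-beta cells the log2 differences were 6.14 for Tcrg-C1 (SE 0.32), 3.48 for Tcrg-C2 (SE 0.29) and 6.81 for Tcrg-C4 (SE 0.26), and each passed the test (edgeR adjusted p = 2.36e-07 or lower). Against NK cells they were 5.26 for Tcrg-C1 (SE 0.21) and 3.28 for Tcrg-C4 (SE 0.16), both called by edgeR (adjusted p = 3.66e-42 or lower).

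NK cells were unlike for the 3 gamma genes. Tcrg-C4 was present at 11.2 to 51.3 CPM, Tcrg-C1 at 2.14 to 6.05 CPM, and Tcrg-C2 and Trgv2 had 0 UMIs in 7305093 NK UMIs. With a floor of 3 UMIs over the NK gate, which is 0.411 CPM, Tcrg-C2 was at least 356-fold higher in gamma-delta cells and Trgv2 at least 296-fold higher, pooling the 4 tumours.

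Trgv2, a gamma V segment, was at 120 and 106 CPM (WT) and 201 and 164 CPM (IL1α-/-) in the gamma-delta gate. The 2 groups did not overlap but no test passed (log2 difference 0.62, SE 0.27, edgeR adjusted p = 0.237, with 3.78% of all genes called in that comparison). The 201 CPM of IL1α-/- 1 rests on 13 UMIs in a gate of 43 cells. Cells with Trgv2 were set beside those with the constant genes, of which Tcrg-C2 lies on the same strand. Of the 203 gamma-delta cells with a Trgv2 UMI, 60.1% (exact 95% interval 53.0% to 66.9%) had a Tcrg-C2 UMI, against 30.1% (25.5% to 35.1%) of the 365 cells without one. For Tcrg-C1 the shares were 47.8% and 39.5%, and for Tcrg-C4 53.2% and 40.8%. Tcrg-C2 was more often seen with Trgv2 in each of the 4 tumours (64.7% against 31.0%, 65.5% against 33.1%, 30.0% against 21.2%, and 48.8% against 27.3%). Tcrg-C2 was also seen in 52.9% of the gamma-delta cells with Tcrg-C4 and 30.9% of those without, so the co-detection was not limited to Trgv2. The intervals cover counting error only, since cells of 1 tumour are not replicates.

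The same pairing appeared in the alpha-beta gates. Of 88 CD8 cells with Trgv2, 40.9% (30.5% to 51.9%) had Tcrg-C2, against 2.43% (1.73% to 3.30%) of 1608 CD8 cells without it. Of 34 CD4 cells with Trgv2, 17 (exact 95% interval 32.4% to 67.6%) had Tcrg-C2, against 1.55% (0.905% to 2.47%) of 1097 without. Most of these CD4 cells came from WT 2, with 15 of 25. WT 1 had 1 of 5 and IL1α-/- 2 had 1 of 4, and IL1α-/- 1 had no CD4 cell with Trgv2. In CD8 cells Tcrg-C1 was seen in 4.55% of those with Trgv2 and 0.746% of those without, and Tcrg-C4 in 5.68% (1.87% to 12.8%) and 0.498% (0.215% to 0.978%). In CD4 cells the shares were 0% and 0.365% for Tcrg-C1 and 2.94% and 0.182% for Tcrg-C4. The alpha-beta gates held Tcrg-C2 at 0 to 38.3 CPM and Trgv2 at 0 to 52.0 CPM, against 0 to 0.512 CPM and 0 CPM in phagocyte-gated cells. The highest alpha-beta values were those of the CD8 gate of IL1α-/- 1.

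**Figure D2:**
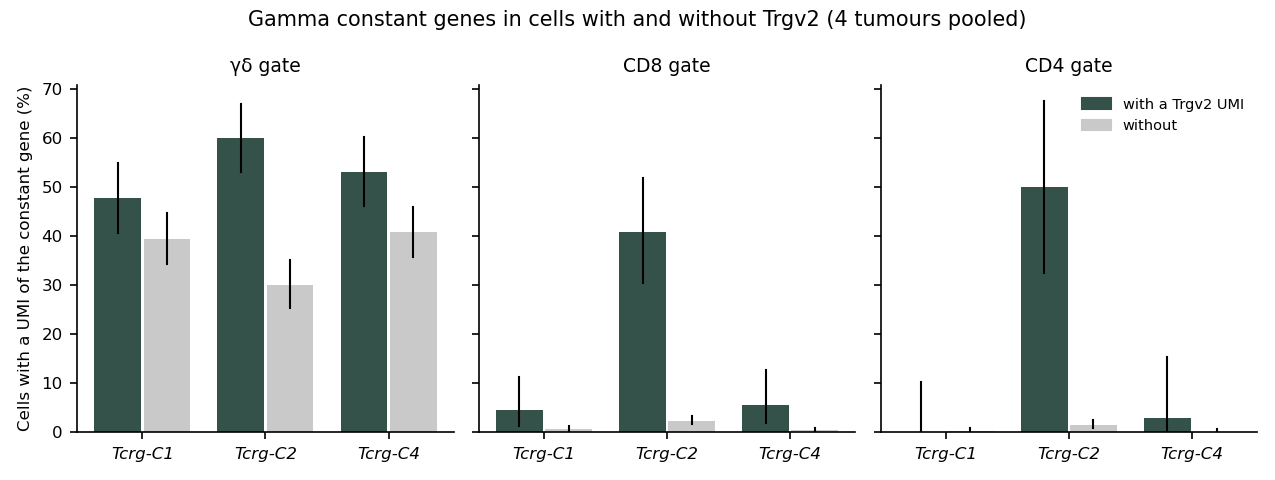
Share of cells (%) with a UMI of Tcrg-C1, Tcrg-C2 or Tcrg-C4 among cells with (dark) and without (light) a Trgv2 UMI, in the gamma-delta (γδ), CD8 and CD4 gates, 4 tumours pooled; lines are exact 95% intervals for counting error. Tcrg-C2 has the widest gap in all 3 gates (60.1% against 30.1%, 40.9% against 2.43%, and 17 of 34 cells against 1.55%).

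Gamma-delta cells were also split by Gzmc or Xcl1, genes of cytotoxic and activated cells. Tcrg-C1 was at 86.4 to 162 CPM in the cells with a UMI of either and 175 to 377 CPM in those without, and the ranges did not overlap. No test was run on this split.

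More than 1 gamma constant gene was seen in most single cells. Of gamma-delta cells with at least 3 UMIs over the 3 constant genes, 84.7% and 84.3% in WT and 70.6% in IL1α-/- 2 had UMIs of more than 1 (72, 102 and 34 cells); IL1α-/- 1 had 2 such cells. Tcrg-C4 made up 36.1% and 39.1% of these UMIs in WT and 42.5% and 38.2% in IL1α-/- tumours. The difference was 2.76 percentage points with p = 0.667 (exact two-sided permutation test over 6 assignments, whose smallest possible p is 0.333), and it turned to -7.74 when cells were thinned to 1000 UMIs.

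The question the study's groups pose for these chains is whether loss of host IL1α changes them. Over all T/NK-gated cells, Trdc was at 195 and 200.3 CPM in WT and 91.4 and 85.7 CPM in IL1α-/- hosts. The groups did not overlap, and Trdc fell by 1.13 on the log2 scale (SE 0.15, edgeR adjusted p = 0.0136). It was the only 1 of the 8 members called, where 4.85% of all 11057 genes tested were called. Without WT 1 the difference was -1.16 and no longer passed (edgeR adjusted p = 0.0584). The gamma-delta gate, which Trdc sets, held 8.36% and 10.0% of T/NK-gated cells in WT and 2.06% and 5.26% in IL1α-/- tumours. With all cells thinned to 1000 UMIs the gate's share differed by -0.564 percentage points in place of -5.53. NK cells, the other cells with Trdc, held 32.5% and 30.6% in WT and 17.9% and 15.6% in IL1α-/-. Within NK cells, which Trdc does not select, its log2 difference was -0.22 (SE 0.16, edgeR adjusted p = 0.403). The part of these shares and of depth in the fall of Trdc was not tested.

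Of the other members, 4 differed between hosts at an unadjusted p under 0.05 and missed the threshold after adjustment. Trbc1 was at 901 and 1004 CPM in WT and 404 and 571 CPM in IL1α-/- tumours (log2 difference -0.93, SE 0.22, edgeR adjusted p = 0.0533). Tcrg-C4 was at 38.9 and 35.6 CPM in WT and 24.98 and 17.5 CPM in IL1α-/- (-0.81, SE 0.20, edgeR adjusted p = 0.0593). Tcrg-C1 was at 27.2 and 23.5 CPM in WT and 11.9 and 16.1 CPM in IL1α-/- (-0.77, SE 0.21, edgeR adjusted p = 0.0735). Those 3 were lower in both IL1α-/- tumours, and Trac was higher in both. Its level was 253 and 270 CPM in WT and 375 and 423 CPM in IL1α-/- (0.64, SE 0.17, edgeR adjusted p = 0.0698). Trbc2 (0.29, SE 0.17), Tcrg-C2 (-0.32, SE 0.27) and Trgv2 (0.41, SE 0.35) did not pass either. DESeq2, the other tool run, called Trac, Trbc1 and Trdc.

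The CD8 gate held 5.12% and 9.40% of T/NK-gated cells in WT and 32.5% and 31.0% in IL1α-/- tumours, and the CD4 gate 15.8% and 17.8% against 4.70% and 12.9%. After thinning to 1000 UMIs the CD8 difference was 17.6 percentage points in place of 24.5, and the CD4 difference -0.695 in place of -8.02. Without IL1α-/- 1 the CD4 difference was -3.93. The exact permutation p of the CD8 difference was 0.333 both ways, the smallest 2 tumours against 2 can give, and for CD4 it was 0.333 and 1.

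**Figure D3:**
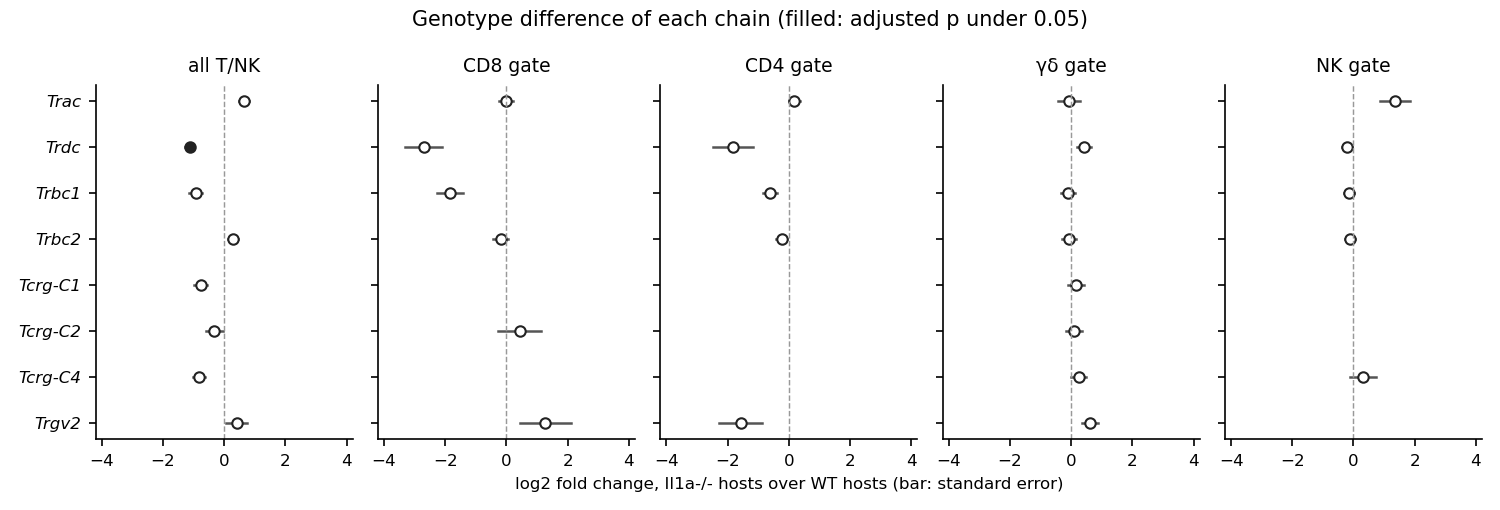
Log2 fold change of each chain, IL1α-/- over WT hosts, in all T/NK-gated cells and in each gate (edgeR; bars are standard errors, filled points have an adjusted p under 0.05); chains under the low-count filter have no point, and the Trdc point of the gamma-delta (γδ) gate is a description only, since Trdc selects those cells. Trdc over all T/NK cells is the only filled point (-1.13), and Trbc1 in the CD8 gate is far from 0 with a wide error (-1.84, SE 0.42).

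Within single gates no member passed by edgeR. In the CD8 gate 0 of 6 members tested were called (0.716% of all genes), 2 having an unadjusted p under 0.05; DESeq2 called 1, Trdc. In the CD4 gate it was 0 of 5 (3.83% of all genes; 3 at an unadjusted p under 0.05; 0 by DESeq2). In the gamma-delta gate, leaving out Trdc, it was 0 of 7 (3.78% of all genes, 1 at an unadjusted p under 0.05, 0 by DESeq2). In NK cells it was 0 of 5 (14.9% of all genes; 1 at an unadjusted p under 0.05; 0 by DESeq2). Trac in NK cells had the log2 difference 1.37 (SE 0.50, edgeR adjusted p = 0.0722), on 54 UMIs in all and at levels that overlapped those of phagocyte-gated cells.

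Trbc1 in the CD8 gate showed the widest gap between hosts of the well-detected chains. It was at 645 and 1132 CPM in WT 1 and WT 2, and at 151 and 361 CPM in IL1α-/- 1 and IL1α-/- 2. The groups did not overlap, with a log2 difference of -1.84 (SE 0.42) that did not pass (edgeR adjusted p = 0.0894). The difference was -1.34 without IL1α-/- 1 and -2.62 without IL1α-/- 2, the ends of its range over the alternative runs. Whether it passed depended on the tumour left out: it did without either IL1α-/- tumour and did not without either WT tumour. Trbc2 in the same cells was at 1273 and 1461 CPM (WT) and 1441 and 1040 CPM (IL1α-/-), overlapping. Trac overlapped too, as given above. Trdc, at 57.8 and 23.5 CPM in WT and 10.3 and 3.29 CPM in IL1α-/-, had the log2 difference -2.71 (SE 0.60, edgeR adjusted p = 0.0833) and rests on 85 UMIs in all.

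In the CD4 gate Trbc1 was at 1328 and 1348 CPM in WT and 626 and 1035 CPM in IL1α-/- tumours (log2 difference -0.62, SE 0.24, edgeR adjusted p = 0.165). The change between hosts was larger in CD8 than in CD4 cells: a joint edgeR fit of both gates, separate from the fits above, put the difference between the gates at -1.15 (SE 0.21, interaction test, adjusted p = 0.00035), the 1 member called of 6 where 2.92% of all genes were. Without WT 2 it was -0.76 (edgeR adjusted p = 0.181) and without IL1α-/- 1 it was -0.97 (edgeR adjusted p = 0.109), so that call rests on these 2 tumours. The same test between gamma-delta and NK cells called 0 of 6 members by edgeR (2 at an unadjusted p under 0.05, with 0.264% of all genes called). Those 6 include Trdc, whose level in the gamma-delta gate is set by the gate, so for Trdc the result cannot be read.

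As a share of all Trbc UMIs, Trbc1 in the CD8 gate was 33.6% (exact 95% interval 30.5% to 36.9%) and 43.7% (42.0% to 45.3%) in WT, and 9.46% (8.30% to 10.7%) and 25.8% (24.6% to 26.9%) in IL1α-/- tumours. All 4 intervals, which cover counting error only, were apart. The means were 38.6% ± 7.08 (SD, n = 2) and 17.6% ± 11.5 (SD, n = 2), and the exact two-sided permutation test gave p = 0.333, its lowest possible value with these groups. The difference was -21.0 percentage points, and -12.9 without IL1α-/- 1. In cells thinned to 1000 UMIs the shares were 27.4% and 47.3% in WT and 7.02% and 28.0% in IL1α-/- tumours, which overlapped (exact permutation p = 0.667). The CD4 gate was at 48.1% and 48.8% in WT and 34.4% and 46.5% in IL1α-/-. Gamma-delta cells (51.1% and 56.0% against 46.6% and 56.5%) and NK cells (79.3% and 79.0% against 75.2% and 81.9%) overlapped between hosts. At the level of single CD8 cells with at least 3 Trbc UMIs, 86.5% of those in IL1α-/- 1 had Trbc2 alone, against 40.4%, 25.8% and 45.1% in WT 1, WT 2 and IL1α-/- 2.

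**Figure D4:**
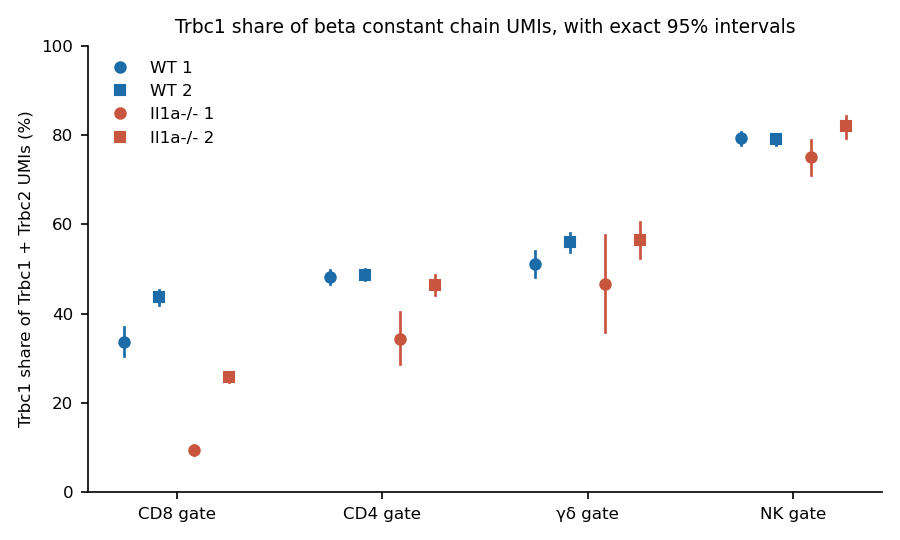
Trbc1 as a share (%) of the Trbc1 and Trbc2 UMIs in each gate and tumour, with exact 95% intervals for counting error; blue WT, red IL1α-/-, circles replicate 1, squares replicate 2. In the CD8 gate the values run from 9.46% (IL1α-/- 1) to 43.7% (WT 2), while in NK cells they stay between 75.2% and 81.9%.

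The V segments of the same CD8 cells differed from tumour to tumour. The segments named here were chosen after their values were seen. V segments lie at the 5′ end of the transcript, far from where a 3' library reads, and their UMIs were few. In IL1α-/- 1, Trav1 (chr14:52427928-52428876) took 131 of the 157 Trav UMIs of the CD8 gate, 83.4% (exact 95% interval 76.7% to 88.9%). It took 1 of 20, 5 of 61 and 1 of 162 in WT 1, WT 2 and IL1α-/- 2. On the beta side Trbv2 (chr6:41047340-41047995) took 146 and its neighbour Trbv3 (chr6:41048290-41048828) 84 of the 238 Trbv UMIs of IL1α-/- 1. In IL1α-/- 2 the leading segments were others: Trav7-3 with 76 of 162 Trav UMIs (46.9%, 39.0% to 54.9%) and Trbv4 with 39 of 126 Trbv UMIs (31.0%, 23.0% to 39.8%). No Trav or Trbv segment held more than 26.7% of its family's CD8 UMIs in the WT tumours, on 15 to 68 UMIs. In the CD4 gate the leading Trav or Trbv segment held 9.09% to 30.8%, on 11 to 104 UMIs.

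**Figure D5:**
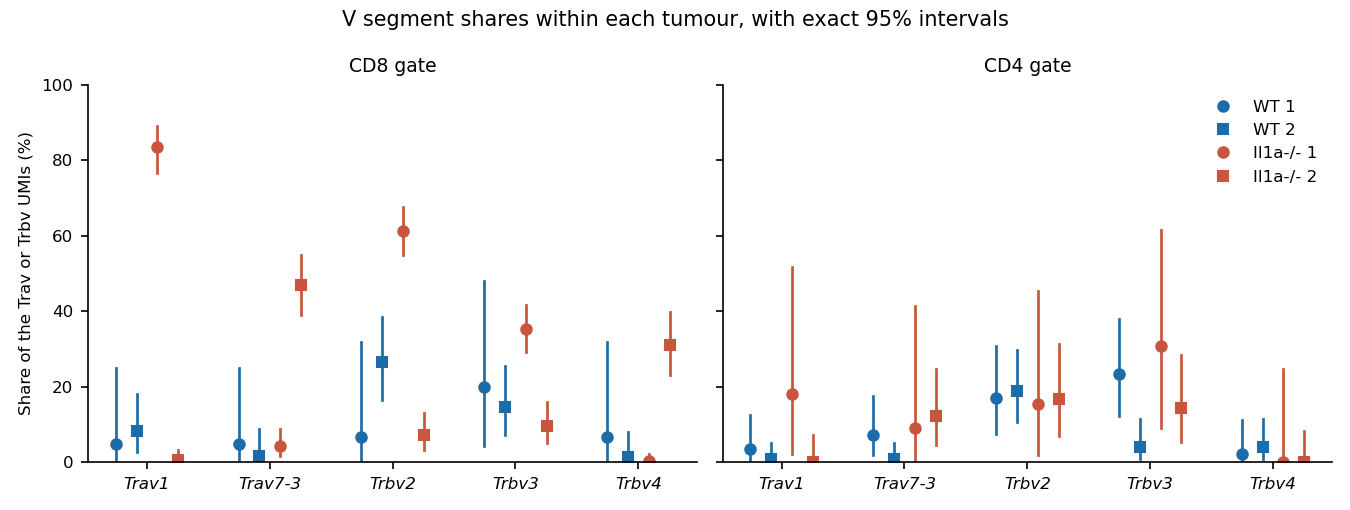
Share (%) of the Trav UMIs (Trav1, Trav7-3) or Trbv UMIs (Trbv2, Trbv3, Trbv4) that each V segment held in the CD8 and CD4 gates of each tumour, with exact 95% intervals for counting error; blue WT, red IL1α-/-, circles replicate 1, squares replicate 2. Trav1 and Trbv2 lead in the CD8 gate of IL1α-/- 1 (83.4% and 61.3%) and Trav7-3 and Trbv4 in that of IL1α-/- 2 (46.9% and 31.0%).

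A gamma segment moved with them. Tcrg-V3 (chr13:19242845-19243301) had 97 UMIs in 81 CD8 cells of IL1α-/- 1 and 0 in the CD8 gate of the other 3 tumours. In that tumour 25.2% of the 107 CD8 cells with Trav1 also had Trbv2, against 15.96% of the 570 without, and 19.6% had Tcrg-V3, against 10.5%. Trgv2 was in 22.2% of the 81 cells with Tcrg-V3 and in 5.87% of the 596 without. The 275 CD8 cells of IL1α-/- 1 with a UMI of Trav1, Trbv2, Trbv3 or Tcrg-V3, 40.6% of the gate, took 2.43% of their Trbc UMIs from Trbc1 (exact 95% interval 1.59% to 3.54%). The other 402 cells took 15.5% (13.5% to 17.6%), still below the CD8 values of the other 3 tumours. In WT 1 the share was 37.8% with these segments (5 cells, interval 23.8% to 53.5%) and 33.4% without, which counting error does not tell apart. The share was higher with them in the other tumours. It was 53.1% (48.7% to 57.5%) and 42.0% in WT 2 (24 cells with). In IL1α-/- 2 it was 43.8% (36.9% to 50.8%) and 25.1% (20 cells with). In IL1α-/- 2, Trav7-3 marked 57 CD8 cells, of which 82.5% had a Trbc1 UMI, against 39.7% of the 639 without it. Cells with more UMIs are more likely to show any 2 segments, and the part of depth in these shares was not tested.

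Delta and gamma V segments were read in the gamma-delta and NK gates. Trdv4 had 24 and 33 UMIs in NK cells of WT and 11 and 14 in those of IL1α-/- tumours. Gamma-delta cells, a smaller gate, had 14, 17, 6 and 22, and CD8 and CD4 cells 0 to 2. In CPM, Trdv4 was at 9.10, 9.99, 23.5 and 15.6 in NK cells of WT 1, WT 2, IL1α-/- 1 and IL1α-/- 2. Gamma-delta cells held 17.9, 12.0, 92.6 and 51.6 CPM in the same order, higher in each tumour. Another delta segment, Trdv2-2, did not keep that direction. It was at 4.55, 6.66, 4.27 and 4.47 CPM in NK cells and 6.38, 2.84, 15.4 and 2.35 CPM in gamma-delta cells. The gamma-delta values rest on 5, 4, 1 and 1 UMIs. Tcrg-V1 (chr13:19339989-19340454), which lies just before Tcrg-C4 on the plus strand, had 23, 45, 4 and 14 UMIs in gamma-delta cells and 2 to 6 in NK cells. Trbv1 had 0 UMIs in NK cells and 0 to 18 in the CD8 and CD4 gates.

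Across the 16 sums of the CD8, CD4, gamma-delta and NK gates in 4 tumours, each member's profile was set beside those of 5572 genes (log2 of CPM plus 10, Pearson r, given as a description since the sums share their libraries and Trdc sets a gate). Trac was most like Cd6 (r = 0.967), Lat and Cd5, and Trbc2 most like Lat (r = 0.980), Plcg1 and Themis. Trdc was most like Tcrg-C4 (r = 0.965), and Tcrg-C1 most like Tcrg-C4 (r = 0.928). Tcrg-C2 and Trgv2 were each other's closest (r = 0.990). Trbc1 had no close partner, Myo1e coming first at r = 0.826, followed by Gnl1 and Itgb7.

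The genes that carry the receptor to the surface and pass its signal on were counted from lists. All 4 CD3 complex genes, and Lck and Skap1 of the signalling list, are also in the panel that gates T/NK cells, so their counts are not independent of the gate. Over T/NK-gated cells 1 of the 4 CD3 complex genes was higher in IL1α-/- hosts and none lower (median log2 difference 0.50, all genes -0.02): Cd3e, a CD3 chain, by 1.39 (SE 0.29, edgeR adjusted p = 0.0413). Of 18 proximal signalling genes 5 were higher and none lower (median 0.37), where 4.85% of all genes were called, 316 higher and 220 lower, among them Themis, a T cell signalling adaptor (1.25, SE 0.15, edgeR adjusted p = 0.0107), Grap2 (0.77), Ptpn22 (0.96) and Plcg1 (0.64). Without WT 1 none of these 5 named genes passed (edgeR adjusted p from 0.0584 for Themis to 0.187 for Plcg1). The coreceptor genes Cd8b1 (2.92) and Cd8a (2.38) were higher as well, and Cd8b1 sets the CD8 gate. In the CD8 gate edgeR called 0 of 4 CD3 and 0 of 18 signalling genes (1 and 0 at an unadjusted p under 0.05). In the CD4 gate Ptpn22 (1.07) was higher. In NK cells Cd247, the zeta chain that NK receptors also use (0.95), Ptpn22 (1.02) and Fyn (0.72) were. The 4 recombination and pre-receptor genes of the list were under the low-count filter in every gate.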

How the data were processed

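Single-cell 3' libraries of 4 tumours were read as raw UMI counts per gene and barcode; per the submitters' processing notes the authors used Cell Ranger 3.1.0 with mm10, and the deposited counts are not normalized. Droplets with at least 500 UMIs and 250 genes were kept when they differed from empty droplets (false discovery rate 0.001), held at most 20% mitochondrial UMIs and were no predicted doublets (scanpy 1.11.5). Cells were gated by marker UMIs (lineage by a lead of marker genes, at least 2 detected; CD3, Trdc and NK limits of 2 UMIs). Counts were summed per tumour and gate and tested with edgeR 4.0.16 (R 4.3.3; filterByExpr, TMM, quasi-likelihood, Benjamini-Hochberg over all genes, threshold 0.05), on host genotype within a gate, or with tumour as a term between gates. DESeq2 1.42.0 was an alternative. Shares used exact two-sided permutation tests over 6 assignments and exact binomial intervals (scipy 1.17.1), which cover counting error only. The edgeR step was tested on simulated data. Members, gates and lists were chosen with earlier results of these data known. Genes named beside the members are the 3 most alike by Pearson r and list genes called; some results are not reported here. Sequences and positions are from GENCODE M21 (GRCm38).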

Additional observations from a re-analysis of the deposited data

Results flagged for a closer look

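The difference between hosts in Trbc1 was not the same in the CD8 and CD4 gates: a joint edgeR fit of both gates gave an interaction of -1.15 on the log2 scale (adjusted p = 0.00035), while the separate fits gave -1.84 in CD8 and -0.62 in CD4 cells. Trbc1 was lower in both IL1α-/- tumours than in both WT tumours in each gate. Without WT 2 the value was -0.76 and without IL1α-/- 1 it was -0.97, and neither passed (edgeR adjusted p = 0.181 and 0.109).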

How the results depend on the processing

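The 6 members called between gamma-delta and alpha-beta cells, and the 6 between gamma-delta and NK cells, were called by edgeR in every alternative run. For host genotype over T/NK-gated cells the count of members called was 1, and became 3 with DESeq2, 5 without the low-count filter, 2 in cells with at least 1000 UMIs and 0 to 4 when 1 tumour was left out. In the CD8 gate 0 became 1 with DESeq2, 2 without the filter and 0 to 3 with 1 tumour left out; in the CD4 gate 1 without the filter and 0 to 1; in NK cells 1 without the filter and 0 to 1. Between CD8 and CD4 cells 1 became 2 without the filter and 0 to 2, and for the interaction 0 to 1. The cause of these moves was not tested. Counts over all genes ran from 74 (without WT 1) to 1755 (no filter) for T/NK-gated cells against 536, from 5 (without WT 1) to 453 (without IL1α-/- 2) against 59 in CD8, from 80 (without IL1α-/- 2) to 604 (without WT 1) against 301 in CD4, from 0 (without WT 1) to 326 (1 CD3 UMI) against 232 in gamma-delta cells, and from 392 (DESeq2) to 1584 (replicate block) against 1313 in NK cells. Between gates they ran from 305 to 843 against 518 (CD8 and CD4), 439 to 1365 against 1041 (gamma-delta and alpha-beta), 432 to 867 against 837 (gamma-delta and NK), and for the interactions 46 to 334 against 258 and 5 to 85 against 21.

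The groups share replicate numbers, and the labels put the 2 pairs on separate days without saying that the number marks the day; rep 1 minus rep 2 differences of the 2 hosts correlated at 0.0173 to 0.143. When that number entered as a replicate block, the members called were 5 over T/NK-gated cells (Trac, Trbc1, Trdc, Tcrg-C1 and Tcrg-C4), 2 in CD8 and 1 in CD4, and none in gamma-delta or NK cells.

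No value passed the test in the setting that turned its sign; without IL1α-/- 2, Trgv2 over T/NK-gated cells and in CD8 and Tcrg-C4 in NK cells passed with their first sign. Trac in CD8 was 0.000103 with the block, 0.0244 with DESeq2 and 0.0360 without the filter. In gamma-delta cells Trbc2 was 0.0164 at 1 Trdc UMI, and with a gate free of members Tcrg-C2 was -0.517 and Tcrg-C4 -0.170. The Tcrg-C4 share was -7.74 percentage points in thinned cells. Leaving out 1 tumour, log2 differences ranged over T/NK-gated cells from -0.743 to 0.112 (Tcrg-C2) and -0.258 to 0.968 (Trgv2); in CD8 from -0.174 to 0.189 (Trac), -0.429 to 0.0218 (Trbc2), -0.893 to 1.27 (Tcrg-C2) and -0.427 to 2.17 (Trgv2). In gamma-delta cells they ranged from -0.239 to 0.0638 (Trac), -0.532 to 0.0637 (Trbc1), -0.166 to 0.298 (Tcrg-C1) and -0.0600 to 0.149 (Tcrg-C2); in NK cells from -0.309 to 0.0881 (Trbc2) and -0.889 to 1.27 (Tcrg-C4). Between CD8 and CD4 cells they ranged from -0.0382 to 0.121 (Trbc2) and -0.175 to 0.874 (Trgv2), and between gamma-delta and alpha-beta cells from -0.167 to 0.485 (Trbc1). The Trbc1 share differed by -6.98 to 2.96 percentage points in gamma-delta and -3.97 to 2.80 in NK cells. The gamma-delta gate of IL1α-/- 1 held 43 cells.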
